A study of Homo sapiens with 10 samples.

Results

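Matrix metalloproteinases (MMPs) are zinc enzymes that cut collagens, laminins and other matrix proteins, and the tissue inhibitors of metalloproteinases (TIMPs) block them in a tight complex. The genes described here are 9 of these, taken by gene name from a table of 58302 genes. MMP1, MMP3, MMP10, MMP12 and MMP13 lie in 1 cluster of chromosome 11, and MMP9, MMP14, TIMP2 and TIMP3 lie on other chromosomes. The libraries came from KYSE-410, an established line of human oesophageal squamous cell carcinoma. Clones D4, G4, G10 and H3 were edited with plasmids of the Cas9 nickase to knock out SHIP2, a phosphoinositide phosphatase encoded by INPPL1, and were screened by western blot. The control was 1 colony that received the vector without guide RNA. Each of these 5 groups had 2 libraries. Transfected cells that expressed a co-delivered GFP reporter were sorted into a multiwell plate and expanded, so each edited group is 1 clone, and the knock-out and what is particular to a clone cannot be told apart within it.

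In the wider biology, MMP1 and MMP13 are collagenases that open the triple helix of fibrillar collagen, and MMP3 and MMP10 are stromelysins with broad substrates that can activate other MMPs. MMP12 is the macrophage elastase and MMP9 a gelatinase that leukocytes and tumour cells secrete. MMP14 is anchored in the cell membrane and, with TIMP2 as the bridge, activates the gelatinase MMP2. TIMP3 is the TIMP that binds to the matrix and also inhibits several ADAM proteases. Many genes of the chromosome 11 cluster carry an AP-1 element and a TATA box close to their start.

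The promoter table of RefSeq on GRCh38.p14 held 3 of the 9 members, namely MMP10, MMP14 and TIMP3. Their 100 bases before the start site are shown because these genes moved in different directions. Those of MMP7, a matrilysin gene of the same chromosome 11 cluster but not among the 9 members, are shown with them. MMP7 was not called changed in any clone. Its level was only 0.45 to 1.30 CPM (scaled read counts), from 5 to 13 estimated reads a library, which limits the changes that could be called. Capitals mark the AP-1 element TGAGTCA where it was found. In MMP10 they mark TGAATCA, which departs from that element by 1 base. The second run of capitals in a line is the TATA box, searched as TATAAA.
MMP10, chr11:102780629-102780728, minus strand: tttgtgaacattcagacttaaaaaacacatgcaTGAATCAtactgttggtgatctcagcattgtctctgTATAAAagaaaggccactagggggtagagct
MMP7, chr11:102530748-102530847, minus strand: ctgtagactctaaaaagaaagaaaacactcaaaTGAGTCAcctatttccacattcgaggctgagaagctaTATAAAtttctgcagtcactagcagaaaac
MMP14, chr14:22836485-22836584, plus strand: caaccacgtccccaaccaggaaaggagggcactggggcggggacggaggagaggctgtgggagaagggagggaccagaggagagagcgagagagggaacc
TIMP3, chr22:32801605-32801704, plus strand: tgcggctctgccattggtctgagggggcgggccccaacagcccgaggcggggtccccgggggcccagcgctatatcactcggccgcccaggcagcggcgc
In MMP10 the AP-1 variant ended 61 bases before the start and the TATA box 26 bases before it. In MMP7 the AP-1 letters also ended 61 bases before the start, and the TATA box 25 bases before it. MMP14 and TIMP3 had neither in the 250 bases searched. Over 35116 promoters of that length, TGAGTCA or its reverse complement TGACTCA occurred in 4.2%, TGAATCA or TGATTCA in 2.53%, and TATAAA on the given strand in 6.8%. The variant TGAATCA was looked for after the MMP10 sequence had been seen. The ETS core GGAA or its reverse complement TTCC occurred in 92.7% of these promoters and in all 4 genes shown.

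Levels are CPM, gene-assigned reads scaled to a common total in every library, and the depth behind them was estimated at 9653837 to 14253459 reads. Where a gene is at 0, as many as 3 reads are still possible, which is 0.21 to 0.311 CPM. The squamous markers were present, 13 of 13 listed genes passing the filter of at least 1 CPM in at least 2 libraries, although KRT14 and PKP1 stayed at or below 1.4 CPM. Their summed level was 1620 to 2600 CPM in the clones and 3440 to 3520 CPM in the control. Of the fibroblast markers 2 of 10 passed that filter, LUM with 4.5 to 119.07 CPM and COL1A1 with 6.55 to 16.49 CPM, while DCN and COL1A2 stayed at or below 0.2 CPM. The fibroblast sum was 12.2 to 137 CPM in the clones and 16.6 to 21.0 CPM in the control. Of the leukocyte markers 1 of 9 passed, CD68, with a list sum of 6.45 to 39.2 CPM in the clones and 38.6 to 39.4 CPM in the control, and MS4A1 was at 0. Of the endothelial markers 1 of 6 passed, with sums of 1.1 to 3.5 CPM in the clones and 1.25 to 1.5 CPM in the control.

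INPPL1, the targeted gene, averaged 88.44 CPM in D4, 64.87 CPM in G4, 9.49 CPM in G10 and 86.71 CPM in H3, against 144.88 CPM in the control. The clone with the least INPPL1 transcript was G10.

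Of the 9 members 6 passed the filter, 3 of 5 in the cluster (MMP1, MMP10, MMP13) and 3 of 4 outside it (MMP14, TIMP2, TIMP3). For the mean of the 4 clones against the control, all 3 tested cluster members and MMP14 fell, and TIMP2 and TIMP3 rose (limma, adjusted p below 0.05 over 17664 genes). That is 4 of 6 tested members lower and 2 of 6 higher, beside 22.0% lower and 18.2% higher among all genes tested. The median log2 difference of the 3 cluster members was −2.67, and that of all tested genes was −0.02. These tests measure only the spread between the 2 libraries of a group, which may be technical, since nothing in the labels says that they came from separate cultures. With 1 mean per clone, and so 4 clones against 1 control colony, no member passed (adjusted p = 0.98 for each of the 6 by limma), nor did any other gene, and 693 genes had an unadjusted p under 0.05. In bulk RNA, fewer cells that express a gene and less RNA per cell cannot be told apart.

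**Figure D1:**
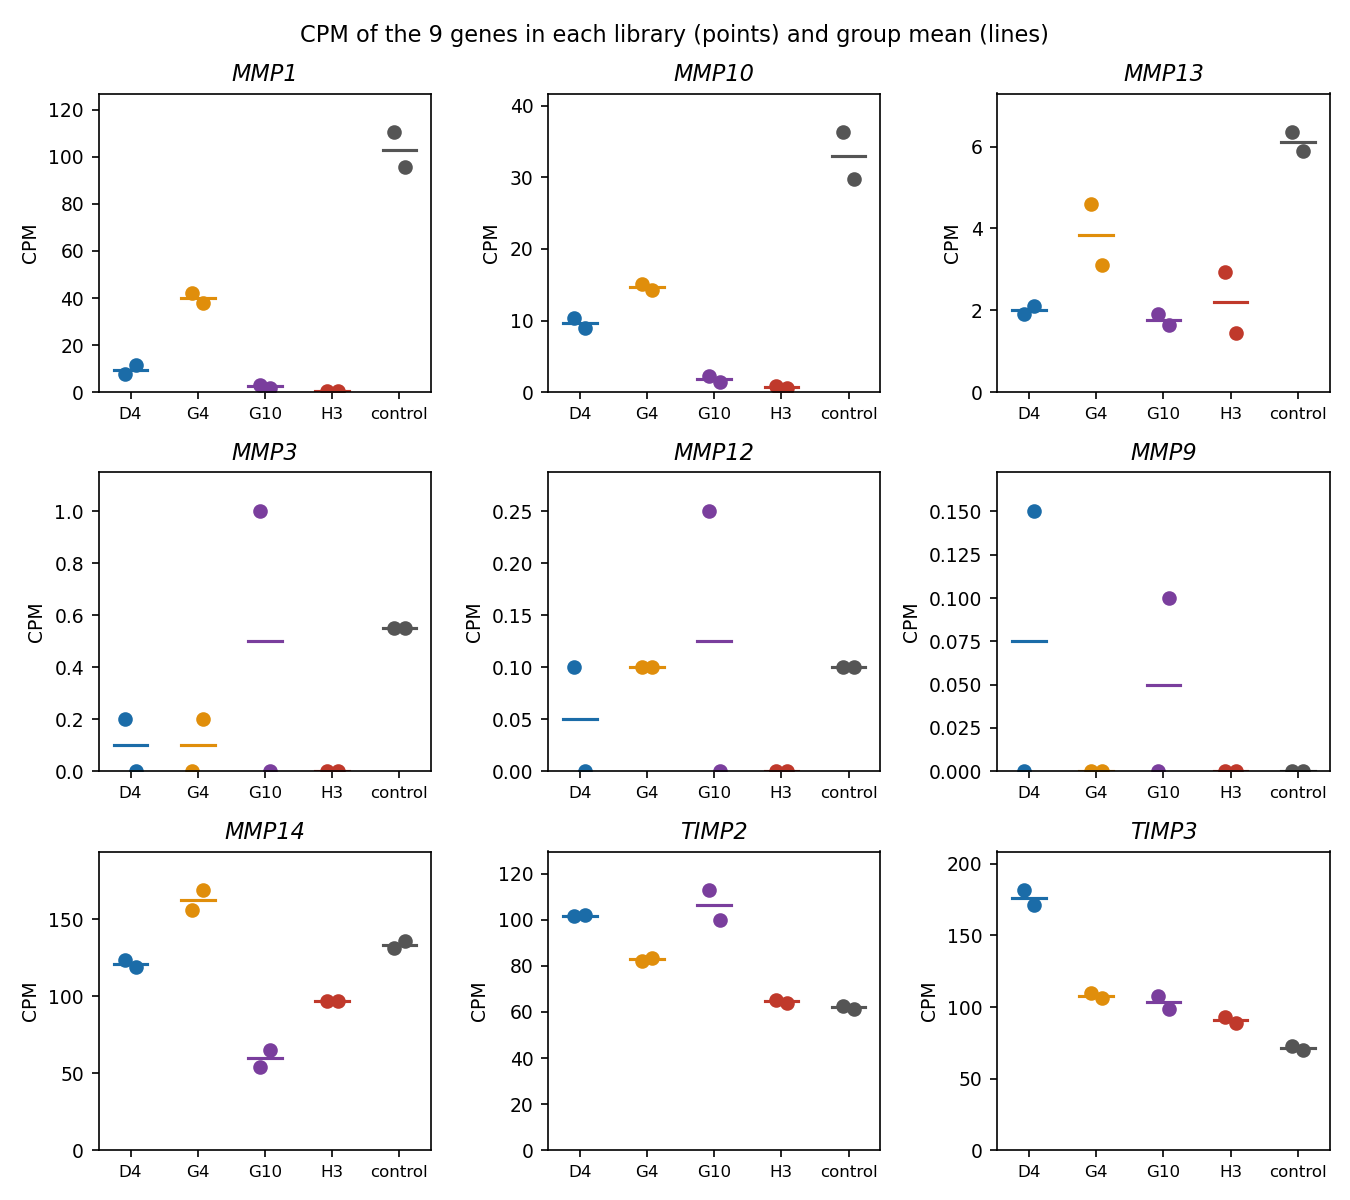
CPM of the 9 members in each library (points, linear axes from 0, 2 libraries per group) with the group mean as a line, for D4, G4, G10, H3 and the control. MMP1 lies at 0.35 to 41.98 CPM in the clones against 95.48 to 110.33 CPM in the control, while TIMP3 lies at 89.13 to 181.42 CPM against 70.25 to 72.61 CPM.

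MMP1 (ENSG00000196611, chromosome 11, 102789920 to 102798160, minus strand, hg38) had 7.65 and 11.49 CPM in the D4 libraries, 41.98 and 37.98 CPM in G4, 3.15 and 1.85 CPM in G10 and 0.35 and 0.70 CPM in H3, against 110.33 and 95.48 CPM in the control. All 8 knock-out libraries lay below both control libraries, and the clones did not overlap each other. How many of all genes show such a separation was not counted, here or for the genes below. Relative to the control mean, the MMP1 level left was 9.3% in D4, 38.9% in G4, 2.43% in G10 and 0.51% in H3. The H3 values rest on 4 and 9 estimated reads, against 1236 and 1249 reads in the control. The log2 difference on the log2(CPM + 1) scale was −3.92 ± 0.17 for the mean of the clones (SE, limma adjusted p = 9.7e-09). Since 1 CPM is added, this scale understates the change of low values: for H3 it gave −6.10, against −7.42 with 0.1 CPM added. MMP1 had the fifth lowest mean difference of all genes tested.

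MMP10 (ENSG00000166670, 102770503 to 102780628, minus strand), whose promoter with the AP-1 variant is shown above, had 10.29 and 8.94 CPM in D4, 15.09 and 14.29 CPM in G4, 2.2 and 1.45 CPM in G10 and 0.80 and 0.65 CPM in H3, against 36.28 and 29.73 CPM in the control. The 4 clones kept the same order as for MMP1, H3 below G10 below D4 below G4, with no overlap between groups. What remained was 29.1% of the control mean in D4, 44.5% in G4, 5.53% in G10 and 2.19% in H3. The mean log2 difference was −2.67 ± 0.13 (SE, limma adjusted p = 3.49e-10).

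MMP13 (ENSG00000137745, 102942995 to 102955734, minus strand) is the other collagenase and was far less abundant. It had 1.90 and 2.10 CPM in D4, 4.60 and 3.10 CPM in G4, 1.90 and 1.65 CPM in G10 and 2.95 and 1.45 CPM in H3, against 6.35 and 5.90 CPM in the control. All 8 knock-out libraries lay below both control libraries, but the ranges of H3, D4 and G10 overlapped. The mean log2 difference was −1.09 ± 0.17 (SE, limma adjusted p = 0.000123). In G4 the difference of −0.57 did not pass (limma adjusted p = 0.0642), and it did pass with the replicate number as a block (0.0371) or without either H3 library (0.0374 and 0.0387).

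MMP3 and MMP12 did not pass the filter and were not tested. MMP3 (102835801 to 102843803) had 0.20 and 0 CPM in D4, 0 and 0.20 CPM in G4, 1.00 and 0 CPM in G10 and 0 CPM in both H3 libraries, against 0.55 CPM in each control library. Its 1.00 CPM in G10 replicate 1 came from an estimated 13 reads, while replicate 2 of the same clone had 0. The 0 in H3 allows up to 0.251 and 0.225 CPM. MMP12 (102862736 to 102875034) stayed at 0 to 0.25 CPM in the clones and at 0.10 CPM in each control library, with 8 estimated reads over all 10 libraries.

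The summed level of the 5 cluster members was 20.1 and 22.5 CPM in D4, 61.8 and 55.7 CPM in G4, 8.49 and 4.95 CPM in G10 and 4.10 and 2.80 CPM in H3, against 154 and 132 CPM in the control. As a share of the CPM of all 23 MMP genes listed, they made up 0.602% to 11.8% in the clones and 18.2% to 20.4% in the control. MMP1 gave most of the control sum, with a mean of 102.91 of 143 CPM. It was 0.52 of 3.45 CPM in H3, where MMP13 was the most abundant of the 5, and 9.57 of 21.3 CPM in D4, where MMP10 was as abundant. The sum fell in the same order of clones as MMP1 and MMP10. The INPPL1 transcript, which does not measure the SHIP2 protein left in a clone, was lowest in G10 and then G4. A link between the SHIP2 left and the MMP levels was not tested.

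Outside the cluster, MMP14 (ENSG00000157227, chromosome 14, 22836557 to 22849027, plus strand) had no common direction. It had 123.69 and 118.76 CPM in D4, 155.97 and 168.67 CPM in G4, 54.31 and 65.00 CPM in G10 and 97.04 and 96.67 CPM in H3, against 131.17 and 135.90 CPM in the control. The 6 libraries of D4, G10 and H3 lay below both control libraries, and the 2 of G4 above both. The difference passed as a fall in G10 (log2 difference −1.15, adjusted p = 3e-08) and H3 (−0.46, adjusted p = 0.000262) and as a rise in G4 (0.28, adjusted p = 0.0188, limma). In D4 the log2 difference was −0.14, with a 95% interval of −0.31 to 0.04 (limma adjusted p = 0.193). The mean over the clones, −0.37 ± 0.06 (SE, limma adjusted p = 0.000307), rests on G10: without that clone it was −0.11 (adjusted p = 0.105). The rise in G4 no longer passed without either control library (adjusted p = 0.114 and 0.0557) or without G4 replicate 2 (0.166).

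TIMP2 (ENSG00000035862, chromosome 17, 78852977 to 78925387, minus strand) had 101.55 and 102.07 CPM in D4, 82.06 and 83.46 CPM in G4, 112.72 and 99.73 CPM in G10 and 65.21 and 63.95 CPM in H3, against 62.61 and 61.26 CPM in the control. All 8 knock-out libraries lay above both control libraries, H3 by the least. The mean log2 difference was 0.49 ± 0.06 (SE, limma adjusted p = 8.61e-06). It passed in D4 (0.71), G4 (0.41) and G10 (0.77). For H3 it was 0.06 with a 95% interval of −0.10 to 0.22 (limma adjusted p = 0.546).

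TIMP3 (ENSG00000100234, chromosome 22, 32801701 to 32863043, plus strand) had 181.42 and 171.42 CPM in D4, 109.65 and 106.30 CPM in G4, 107.87 and 98.58 CPM in G10 and 92.69 and 89.13 CPM in H3, against 72.61 and 70.25 CPM in the control. Every knock-out library was above both control libraries, and D4 stood highest. The mean log2 difference was 0.69 ± 0.06 (SE, limma adjusted p = 1.39e-07), and it passed in each clone, at 1.29 in D4, 0.59 in G4, 0.52 in G10 and 0.34 in H3.

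MMP9 (chromosome 20, 46008908 to 46016561) was not tested. It had 1 estimated read in D4 replicate 2 (0.15 CPM), 1 in G10 replicate 2 (0.10 CPM) and 0 in the other knock-out libraries and both control libraries. The 0 in the control allows up to 0.268 and 0.229 CPM, so a difference as small as these values was not detectable at this depth. A larger rise in the clones was not seen, their highest value being 0.15 CPM.

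**Figure D2:**
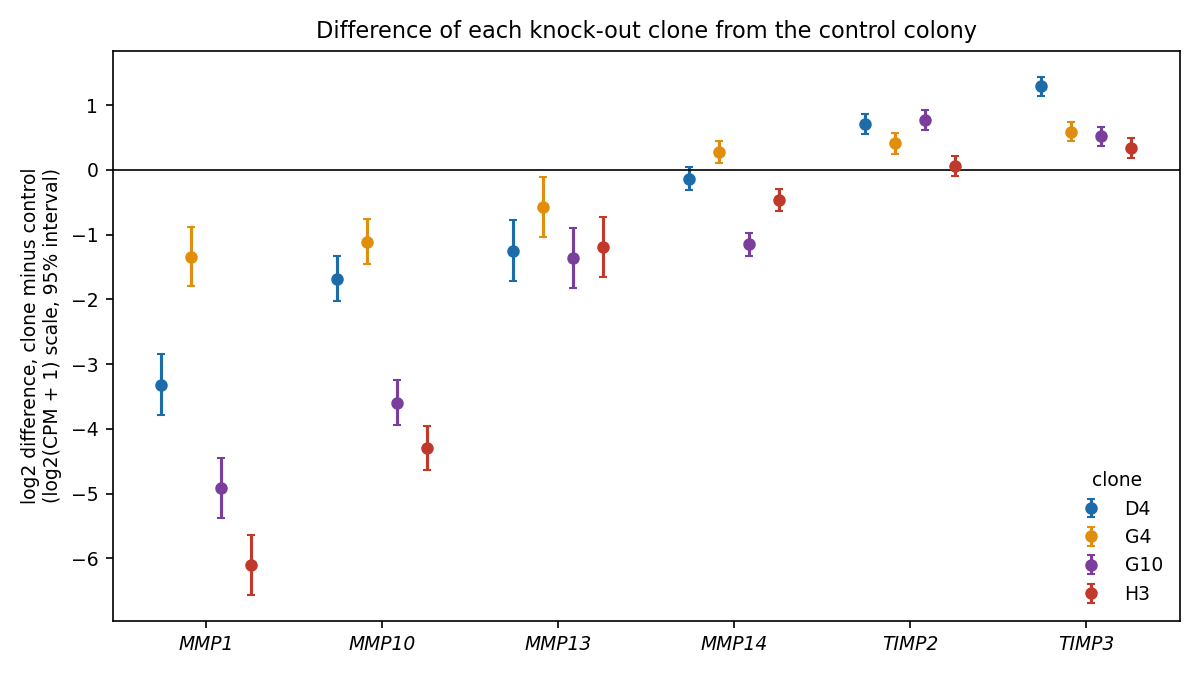
Log2 difference (log2(CPM + 1) scale) between each clone and the control (points) with its 95% interval from limma (bars) for the 6 tested members. MMP1 and MMP10 lie below 0 in all 4 clones and TIMP3 above 0 in all 4, while MMP14 lies at −1.15 in G10 and at 0.28 in G4.

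Counted clone by clone against the control, the tested members called lower were 3 of 6 in D4, 2 in G4, 4 in G10 and 4 in H3, beside 23.8%, 16.4%, 19.1% and 22.1% of all genes tested. Those called higher were 2 in D4, 3 in G4, 2 in G10 and 1 in H3, beside 17.5%, 10.9%, 17.8% and 23.9%. MMP1 and MMP10 fell in each of the 4 clones, as 3.9% of all tested genes did, and TIMP3 rose in each, as 2.81% did. These 4 comparisons share the control libraries.

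The clones also differed among themselves, in a test that does not use the control level. All 6 tested members passed the limma F test between the 4 clones, beside 67.3% of all genes, so the share among the members is to be read against a high background. The adjusted p was 2.54e-08 for MMP1, 3.91e-10 for MMP10, 0.0183 for MMP13, 5.6e-09 for MMP14, 2.3e-06 for TIMP2 and 8.27e-08 for TIMP3. For MMP13 it was 0.273 without G4 replicate 1.

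Set against the mean of the other 3 clones, H3 was lower in 4 of the 6 (MMP1, MMP10, TIMP2, TIMP3) and higher in 0, beside 17.5% lower and 26.1% higher among all genes. G10 was lower in 4 (MMP1, MMP10, MMP14, TIMP3) and higher in 1 (TIMP2), beside 15.4% and 17.7%. G4 was higher in 4 (MMP1, MMP10, MMP13, MMP14) and lower in 0, beside 19.1% higher and 23.7% lower. D4 was higher in 5, all but MMP13, and lower in 0, beside 14.3% higher and 19.1% lower. For MMP1 the log2 difference from the other 3 clones was 0.80 in D4, 3.44 in G4, −1.33 in G10 and −2.91 in H3. The first of these was 0.53 and did not pass without D4 replicate 2 (limma adjusted p = 0.0631).

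All 6 pairs of clones were compared for each member. D4 and G4 differed in 6 of the 6 members, beside 39.5% of all genes. D4 and G10 differed in 4, beside 29.5%, and D4 and H3 in 5, beside 38.3%. G4 and G10 differed in 5, beside 38.1%, G4 and H3 in 6, beside 45.0%, and G10 and H3 in 4, beside 39.5%. MMP1, MMP10 and MMP14 differed in each of the 6 pairs, so their group levels form an order without ties among the clones. For MMP1 the smallest step was from G10 to H3 (G10 minus H3 1.18, limma adjusted p = 0.000986), and for MMP10 it was from D4 to G4 (D4 minus G4 −0.57, limma adjusted p = 0.0115). This step of MMP10 did not pass without D4 replicate 2 (0.0877) or G4 replicate 1 (0.0744). The 3 MMP13 calls between clones, all with G4, were lost when some single libraries were left out. D4 minus G4 (−0.68) did not pass without D4 replicate 1, D4 replicate 2 or G4 replicate 1 (limma adjusted p = 0.102, 0.0586 and 0.212), nor G4 minus G10 (0.79) without G4 replicate 1 or G10 replicate 2 (0.124 and 0.0524). G4 minus H3 (0.62) was 0.40 without G4 replicate 1 and 0.28 without H3 replicate 2, and did not pass in either (0.259 and 0.381). For TIMP3, G4 minus H3 (0.25) did not pass without G4 replicate 1 (0.0778) or H3 replicate 2 (0.0812). In MMP13, D4, G10 and H3 did not differ beyond their spread, the difference of D4 minus G10 being 0.11 with a 95% interval of −0.35 to 0.58. In TIMP2, D4 minus G10 was −0.06 (−0.22 to 0.10). In TIMP3, G4 minus G10 was 0.07 (−0.09 to 0.22) and G10 minus H3 0.18 (0.03 to 0.33, limma adjusted p = 0.0545).

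The 5 cluster members span 185 kb. The 4 other MMP genes of the chromosome 11 cluster, MMP7, MMP8, MMP20 and MMP27, lie before them, from 102520508 to 102727050. Only MMP7 passed the filter, with a mean log2 difference of −0.04 (limma adjusted p = 0.86). MMP8, MMP20 and MMP27 did not exceed 0.15 CPM. The span of the pseudogene WTAPP1 (plus strand, 102746968 to 102836766) overlaps MMP1, MMP3 and MMP10 on the opposite strand. Whether the counting used strand is not stated in the sources used here, so reads from any shared bases may be lost or wrongly assigned. Whether the exons overlap was not looked at. WTAPP1 had 2.40 and 3.45 CPM in D4, 11.94 and 9.20 CPM in G4, 1.45 and 0.75 CPM in G10 and 0.35 and 0.50 CPM in H3, against 29.58 and 27.08 CPM in the control. It fell in each clone (mean log2 difference −3.11, limma adjusted p = 5.87e-10) and ranked the groups as MMP1 did. The ratio of MMP1 to WTAPP1 was 3.19 and 3.33 in D4, 3.51 and 4.13 in G4, 2.17 and 2.47 in G10, and 1.00 and 1.40 for H3, against 3.73 and 3.53 in the control. The ratio of MMP10 to WTAPP1 ran from 1.26 to 4.29 in the clones, against 1.1 and 1.23 in the control.

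The other 16 tested genes within 2 Mb of the cluster, MMPs left out, moved less in their median than MMP1, MMP10 and MMP13 in each clone. Their median log2 difference was −0.19 in D4, −0.25 in G4, −0.11 in G10 and −0.43 in H3, and −0.20 for the mean of the clones. In that mean 7 of the 16 fell and 2 rose, beside 22.0% and 18.2% of all genes. The values ran from −0.63 for BIRC2, an inhibitor of apoptosis, to 0.64 for the cation channel gene TRPC6. By clone, 4 of the 16 fell in D4, 8 in G4, 2 in G10 and 10 in H3, beside 23.8%, 16.4%, 19.1% and 22.1% of all genes. Rises were called for 3 in D4, 0 in G4, 3 in G10 and 2 in H3, beside 17.5%, 10.9%, 17.8% and 23.9%. MMP13 in G4, at −0.57, lay within the range of the neighbours there, −1.19 to 0.09. Among the nearest genes on one side, TMEM123 was at 0.17 and the pseudogene AP000619.1, 15.6 kb away, at −0.32, and AP001830.1 was at 0.11. AP000619.1 averaged 0.43 CPM in D4, 0.85 CPM in G4, 0.67 CPM in G10 and 0.48 CPM in H3, against 1.0 CPM in the control. At such levels the added 1 CPM understates a change. AP001830.1 fell in D4 (−0.68, limma adjusted p = 0.0098) and rose in H3 (0.87, limma adjusted p = 0.00148). On the other side AP001486.2 was at 0.08, DCUN1D5 at −0.30, the dynein heavy chain gene DYNC2H1 at −0.16 and CASP4, an inflammatory caspase, at −0.41. With the median of the genes within 2 Mb subtracted, MMP1 stood at −3.72, MMP10 at −2.47 and MMP13 at −0.89, and each still passed. For MMP14 the same subtraction left the mean at −0.17 (limma adjusted p = 0.052). In G4, where the median of the genes around MMP14 was −0.67, it moved the MMP14 difference to 0.94 (adjusted p = 1.64e-06), against 0.28 without it. It also brought TIMP2 in H3 to 0.20 (adjusted p = 0.0408).

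**Figure D3:**
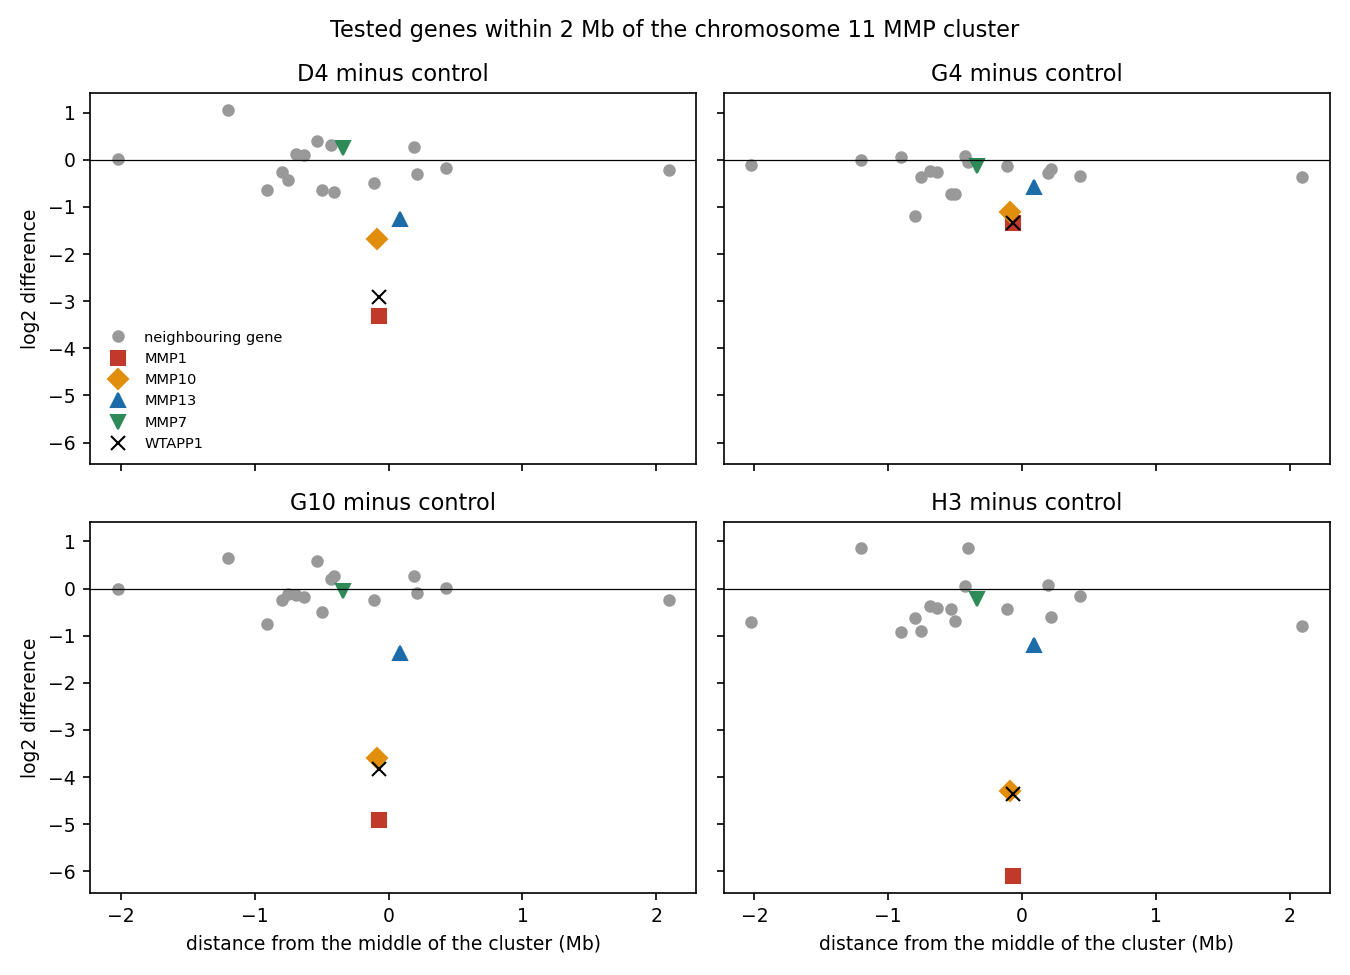
Log2 difference from the control (vertical axis) of tested genes by distance of their midpoint from the middle of the cluster in Mb, 1 panel per clone; grey points are the 16 neighbours, coloured symbols MMP1, MMP10, MMP13 and MMP7, and the cross WTAPP1. MMP1, MMP10 and WTAPP1 lie below every neighbour in all 4 panels except MMP10 in G4, which is at −1.11 where C11orf70 is at −1.19.

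Other annotated overlaps bear on the inhibitors. TIMP2 overlaps AC022966.2 on the opposite strand, at 15.79 to 28.38 CPM, and CEP295NL on the same strand, at 8.14 to 14.69 CPM. TIMP3 lies within SYN3, which is on the opposite strand and did not exceed 0.5 CPM.

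The remaining family gives the setting of these members. Of the 18 further MMP and TIMP genes listed, 12 passed the filter, and for the mean of the clones 5 (41.7%) fell, 2 (16.7%) rose and 5 did not pass, beside 22.0% lower and 18.2% higher among all genes. Their median log2 difference was −0.21, against −0.02 for all genes tested. Per kb of exon, the control level was 78.8 CPM per kb for MMP2, the most abundant of the family. TIMP1 followed at 60.6, MMP1 at 52.2, MMP14 at 29.9, MMP10 at 18.8, TIMP3 at 15.5, TIMP2 at 11, TIMP4 at 7.1, MMP15 at 4.88, MMP28 at 4.25 and MMP13 at 2.16 CPM per kb. In H3 the same scale gave 0.266 CPM per kb for MMP1 and 62.3 for MMP2.

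MMP2, the gelatinase that MMP14 activates, had 257.68 and 201.25 CPM in D4, 245.38 and 254.28 CPM in G4, 185.96 and 256.92 CPM in G10 and 328.38 and 286.02 CPM in H3, against 397.31 and 380.08 CPM in the control. All 8 knock-out libraries were below both control libraries, and the mean log2 difference was −0.64 (limma adjusted p = 0.0137). In H3 the MMP2 difference was −0.34 and did not pass (limma adjusted p = 0.178). MMP28, or epilysin, fell in each clone, with a mean of −1.45 (adjusted p = 1.03e-05), and so did TIMP4 at −1.01 (adjusted p = 1.06e-05, limma). MMP16, a membrane-type MMP, fell in D4 (−0.99) and H3 (−1.0), while its log2 difference was −0.15 in G4 and −0.06 in G10. MMP17, a membrane-type MMP, had 0.65 to 1.50 CPM in the clones and 1.30 and 2.55 CPM in the control. Its mean log2 difference was −0.53 (limma adjusted p = 0.0289). It did not pass in D4 (−0.4, limma adjusted p = 0.185) or G4 (−0.43, limma adjusted p = 0.183).

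MMP19 rose, with 10.10 and 10.59 CPM in D4, 5.25 and 5.05 CPM in G4, 7.94 and 8.64 CPM in G10 and 20.94 and 20.78 CPM in H3, against 4.5 and 4.85 CPM in the control. Its mean log2 difference was 0.94 (limma adjusted p = 2.43e-06), and in G4 it was 0.12 and did not pass (0.544). TIMP1, the secreted inhibitor, rose by a mean of 0.38 (limma adjusted p = 9.05e-05), with all 8 knock-out libraries above both control libraries. In D4 the TIMP1 difference of 0.19 did not pass (limma adjusted p = 0.0501). MMP11, MMP15, MMP24, MMP25 and MMP7 did not pass for the mean, with log2 differences of −0.37, 0.07, 0.12, 0.09 and −0.04. MMP11 did fall in G4 (−0.88), MMP15 rose in H3 (0.43), and MMP24 fell in G4 (−0.46) and rose in G10 (0.60). The MMP11 call is near the floor, with 2 and 3 estimated reads in G4 against 15 and 16 in the control. The summed level of TIMP1 to TIMP4 was 386 and 392.5 CPM in D4, 336 and 329.9 CPM in G4, 340.4 and 319 CPM in G10 and 300.2 and 289.8 CPM in H3, against 238 and 239 CPM in the control.

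**Figure D4:**
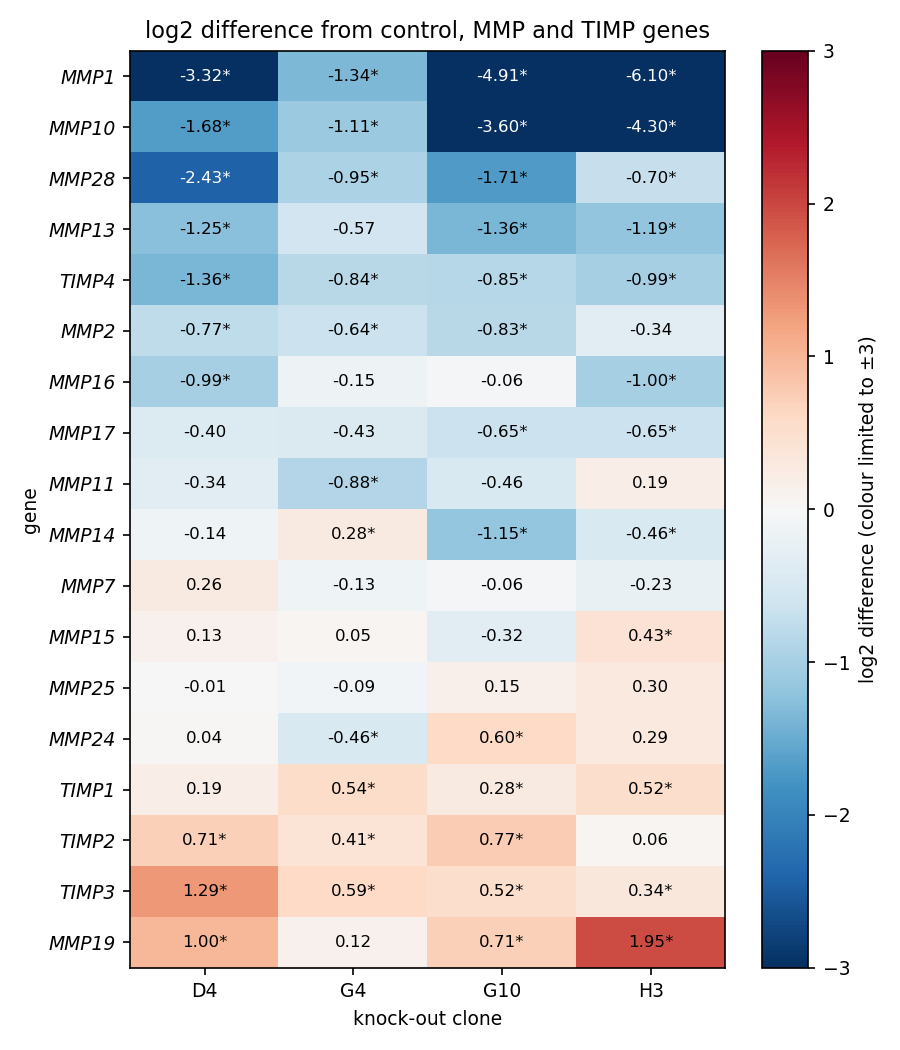
Log2 difference of each clone from the control for the 18 tested MMP and TIMP genes, ordered by the mean over the clones, with an asterisk where the limma adjusted p was below 0.05 and colour limited to 3 in either direction. MMP1 and MMP10 head the falls with values down to −6.10 and −4.30 in H3, and TIMP2, TIMP3 and MMP19 stand at the other end.

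Ratios set enzyme and inhibitor transcripts side by side in each library. MMP14 over TIMP2 was 1.22 and 1.16 in D4, 1.90 and 2.02 in G4, 0.482 and 0.652 in G10, and 1.49 and 1.51 for H3, against 2.09 and 2.22 in the control. All 8 knock-out libraries were below both control libraries, also in G4, where both genes were higher than in the control. MMP1 over TIMP2 was 0.0753 and 0.113 in D4, 0.512 and 0.455 in G4, 0.0279 and 0.0185 in G10, and 0.00537 and 0.0109 for H3, against 1.76 and 1.56 in the control. These are ratios of CPM, not of molecules or of enzyme activity.

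Proteases and inhibitors that activate or restrain MMPs, including the plasminogen system, were tested for 26 of 33 listed genes, of which 14 (53.8%) fell and 5 (19.2%) rose for the mean of the clones, with a median of −0.23. For this and the following lists, 22.0% of all tested genes fell and 18.2% rose in that mean. SERPINB2, the plasminogen activator inhibitor of type 2, averaged 1.02 CPM in D4, 69.5 CPM in G4, 16.4 CPM in G10 and 8.64 CPM in H3, against 251 CPM in the control (log2 difference −4.34, limma adjusted p = 5.13e-14). PLAT, the tissue plasminogen activator, averaged 13.4 CPM in D4, 2.85 CPM in G4, 7.94 CPM in G10 and 13.4 CPM in H3, against 1.02 CPM in the control (2.18, limma adjusted p = 7.27e-09). TFPI2, a Kunitz inhibitor of the matrix, averaged 0.38 CPM in D4, 15.6 CPM in G4, 0.4 CPM in G10 and 0.35 CPM in H3, against 9.47 CPM in the control (−2.03, limma adjusted p = 9.7e-09). KLK6, a kallikrein protease, averaged 520 CPM in D4, 96.6 CPM in G4, 112 CPM in G10 and 159 CPM in H3, against 82.8 CPM in the control (1.05, limma adjusted p = 3.49e-10). For the single clones the median of this list was 0.11 in D4, 0.03 in G4, −0.14 in G10 and −0.63 in H3.

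A list of transcription factors held genes of the AP-1, ETS, RUNX and NF-kappaB families and also genes of other families, such as CEBPB and STAT3. Of its 24 genes 23 were tested, with 7 (30.4%) lower and 2 (8.7%) higher for the mean and a median of −0.11. By clone, 6 fell and 6 rose in D4 (median −0.01), 6 fell and 5 rose in G4 (median 0), 6 fell and 3 rose in G10 (−0.05), and 12 fell and 3 rose in H3 (−0.32). The share lower was 26.1% in D4, G4 and G10 and 52.2% in H3, beside 23.8%, 16.4%, 19.1% and 22.1% of all genes in D4, G4, G10 and H3. The share higher was 26.1% in D4, 21.7% in G4, 13.0% in G10 and 13.0% in H3, beside 17.5%, 10.9%, 17.8% and 23.9%. The AP-1 subunit gene FOSL1 averaged 92.7 CPM in D4, 154 CPM in G4, 129 CPM in G10 and 41.1 CPM in H3, against 133 CPM in the control (mean −0.50, limma adjusted p = 3.58e-06). FOSB, another AP-1 subunit, was at −0.91, CEBPB at −0.40 and STAT3 at −0.30, and each passed for the mean of the clones. By clone, STAT3 fell in each. FOSB fell in G10 (−1.63) and H3 (−1.52) and did not pass in D4 (−0.32) or G4 (−0.18). CEBPB fell in D4 (−1.0) and G4 (−0.39) and did not pass in G10 (−0.07) or H3 (−0.13). Ligands and receptors that can induce MMPs were tested for 18 of 23 genes, with 12 (66.7%) lower and 4 (22.2%) higher for the mean and a median of −0.51. By clone, 9 fell and 5 rose in D4 (median −0.52), 4 fell and 4 rose in G4 (−0.15), 10 fell and 4 rose in G10 (−0.41), and 15 fell and 2 rose in H3 (−0.97). The H3 count is 83.3% lower and 11.1% higher, beside 22.1% and 23.9% of all genes.

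The cytokine gene IL1A averaged 7.55 CPM in D4, 34.1 CPM in G4, 8.44 CPM in G10 and 5.95 CPM in H3, against 38.3 CPM in the control (mean −1.74, limma adjusted p = 4.91e-07). IL11 averaged 6.65 CPM in D4, 14.4 CPM in G4, 10.7 CPM in G10 and 2.00 CPM in H3, against 26.1 CPM in the control (−1.76, limma adjusted p = 2.45e-08). Both ranked the clones H3, D4, G10 and G4 from the lowest, with D4 below G10, whereas MMP1 and MMP10 had G10 below D4. In G4 the IL1A difference was −0.16 and did not pass (limma adjusted p = 0.546). TGFB2 averaged 59.4 CPM in D4, 17 CPM in G4, 39.4 CPM in G10 and 30.8 CPM in H3, against 7.97 CPM in the control (1.94, limma adjusted p = 6.78e-10). WNT5A averaged 11.5 CPM in D4, 0.05 CPM in G4, 2.60 CPM in G10 and 4.90 CPM in H3, against 0.15 CPM in the control (1.83, limma adjusted p = 5.18e-08). The part that these genes, or the lower squamous marker sum of the clones, have in the MMP differences was not tested.

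The genes outside the family most like each member were taken, among 12744 that averaged at least 5 CPM, by Pearson r of log2(CPM + 1) over the 10 libraries. These libraries form 5 groups, so r chiefly compares 5 levels and is a description only. For MMP1 they were WTAPP1 (0.99), GLI3 (0.985) and SERPINB5 (0.984), and for MMP10 ANO1 (0.982), SEH1L (0.98) and GRIP1 (0.979). MMP13 was followed most closely by SEC22A (0.97), KIAA0556 (0.953) and SEC61A1 (0.951). The genes most like MMP14 were HLA-E (0.981), AKR1C1 (0.974) and RAB7A (0.968). For TIMP2 they were RASSF8 (0.984), the overlapping AC022966.2 (0.982) and SPRED1 (0.976), and for TIMP3 AKAP12 (0.981), GBP1 (0.979) and RASGRF1 (0.972). The likeness is of shape and not of size: ANO1 averaged 88.8 CPM in D4, 120 CPM in G4, 54.7 CPM in G10 and 37.6 CPM in H3, against 140 CPM in the control.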

How the data were processed

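The authors deposited CPM (scaled read counts) per gene and library, per the file headers. Reads were aligned with STAR 2.5.3a and counted with HTSeq on hg38, per the submitters' processing notes; the strand setting, annotation release and any filter are not given in the sources used here. All columns of values were used. Read numbers were estimated by undoing the stepwise scaling of the CPM values, and floors of 3 reads cover counting error only. Positions came from GENCODE release 29, matched by Ensembl ID for 58039 genes. The main test was limma 3.58.1 (trend and robust, R 4.3.3) on log2(CPM + 1) for 17664 genes (2 or more libraries at 1 CPM or above), with a term for each group, 5 residual degrees of freedom, and Benjamini-Hochberg adjustment over all genes at 0.05. The fit was tested on simulated data. Members, lists and tests were chosen with earlier results of these data known. All members and all tested MMP and TIMP genes are named, with up to 4 called genes of largest change per list, up to 4 nearest neighbours on each side and 3 most alike genes; C11orf70 and TRPC6 were named after their values were seen. Python 3.11.15, pandas 2.3.3 and, for plots, matplotlib 3.10.9 were used.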

Additional observations from a re-analysis of the deposited data

Results flagged for a closer look

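The difference from the control varied between the 4 clones for each of the 6 tested members, by the limma F test between the clones. The adjusted p was 2.54e-08 for MMP1, with single-clone log2 differences of −3.32 in D4, −1.34 in G4, −4.91 in G10 and −6.10 in H3. It was 3.91e-10 for MMP10, with −1.68 in D4, −1.11 in G4, −3.60 in G10 and −4.30 in H3. It was 5.6e-09 for MMP14, the member whose direction turned between G10 and G4. It was 2.3e-06 for TIMP2 and 8.27e-08 for TIMP3, where H3 stood nearest to the control. It was 0.0183 for MMP13, with −1.25 in D4, −0.57 in G4, −1.36 in G10 and −1.19 in H3, and this result rests on G4 replicate 1.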

How the results depend on the processing

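The alternatives were no filter, median-of-ratios size factors, a minimum mean of 5 CPM (which leaves MMP13 out), 0.1 CPM as pseudocount, limma-voom on estimated reads, a replicate block, each library or clone left out, 1 mean per clone, and the median of genes within 2 Mb subtracted. Of 1640 alternative values for 96 member results, 1587 kept direction and side of the threshold, 32 lost the call, 16 gained it and 5 turned. The edgeR test was not run, since the deposited CPM did not pass as whole reads. With 1 mean per clone, 0 members were called higher and 0 lower, with 5 groups and 1 value each. With the local median subtracted, 2 members were higher in H3 against the control, and 3 in D4 against the other clones. G4 against the other clones had 1 member lower (TIMP3) with the replicate block and without G10 replicate 2. Left-out libraries gave 0 to 1 there, 2 to 3 for the members higher or lower in G4 against the control, 4 to 5 for those higher in D4 and lower in H3 against the other clones, 3 to 4 for those higher in G4 and 3 to 5 for those lower in G10 against the other clones, and 5 to 6 for the F test. The turned values were not called. With left-out libraries MMP13 ran from −0.48 to 0.21 in H3 against the other clones (0.16 with the local median subtracted), from −0.4 to 0.29 in D4 minus H3 and from −0.51 to 0.18 in G10 minus H3, the first turning without H3 replicate 2 and the others without H3 replicate 1; TIMP2 ran from −0.15 to 0.03 in D4 minus G10, turning without G10 replicate 1. Over all genes the mean contrast called 3215 higher and 3890 lower, against 2176 and 2327 without control replicate 1 and 2072 and 2561 without control replicate 2. Deviations of same-numbered libraries correlated at 0.36 to 0.59 among the control, D4, G4 and G10 and at −0.35 to −0.18 in the 4 pairs with H3. The labels do not say that a number marks a shared batch, so pairing is not shown for all groups; with the replicate block 3494 and 4202 genes were called. The cause of these changes was not tested. Depth limits MMP9 and MMP12 to 0 to 3 reads a library and MMP3 to 0 to 13.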

Other observations

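Proteins that MMPs can cut were tested for 27 of 32 listed genes, of which 8 (29.6%) fell and 7 (25.9%) rose for the mean of the clones, with a median of 0.02, beside 22.0% lower and 18.2% higher among all genes. COL17A1, a hemidesmosome collagen, averaged 27.7 CPM in D4, 279 CPM in G4, 36.15 CPM in G10 and 32.0 CPM in H3, against 289.8 CPM in the control (log2 difference −2.38, limma adjusted p = 2.25e-13). LAMB3, a chain of the laminin of epithelial basement membranes, averaged 339 CPM in D4, 399 CPM in G4, 329 CPM in G10 and 208 CPM in H3, against 953 CPM in the control (−1.62, limma adjusted p = 3.49e-08). COL5A1, a fibrillar collagen chain, averaged 25.5 CPM in D4, 1.50 CPM in G4, 11.1 CPM in G10 and 0.23 CPM in H3, against 0.5 CPM in the control (1.91, limma adjusted p = 5.81e-08). LAMA1, a laminin chain, averaged 17.4 CPM in D4, 5.12 CPM in G4, 10.1 CPM in G10 and 18.0 CPM in H3, against 2.62 CPM in the control (1.77, limma adjusted p = 6.41e-09).

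The ADAM and ADAMTS proteases, some of which TIMP3 inhibits, were tested for 15 of 21 genes, of which 5 (33.3%) rose and 3 (20%) fell, with a median of −0.09, beside 18.2% and 22.0% of all genes. ADAMTS7 averaged 9.92 CPM in D4, 1.75 CPM in G4, 8.22 CPM in G10 and 12.7 CPM in H3, against 2.12 CPM in the control (1.33, limma adjusted p = 8.79e-06). ADAMTS16 was at 0.99, ADAMTS15 at 0.37 and ADAMTS1 at −0.54, and each passed for the mean of the clones. By clone they were less uniform. In G4, ADAMTS7 (−0.17) and ADAMTS16 (0.3) did not pass, and ADAMTS15 did not pass in G4 (−0.04) or H3 (0.21). ADAMTS1 fell in D4 (−1.02) and H3 (−1.37), rose in G4 (0.37) and did not pass in G10 (−0.13).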
